A study of Mus musculus with 16 samples.

Results

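The prefrontal cortex of mice lacking APC in forebrain excitatory neurons was compared with that of mice whose Apc gene was intact. All 16 libraries of the series entered this comparison, 8 on each side. The APC-deleted side held 4 APC cKOs (APC fl/fl with CamKIIα-Cre) and 4 APC/β-cat cKOs (APC fl/fl and ctnnb1 fl/fl with the same Cre). The APC-intact side held 4 β-cat cOEs (ctnnb1 fl(ex3)/+ with the same Cre, which removes the degradation domain of β-cat) and 4 controls, which were Cre-negative littermates drawn from all of the lines. Membership came from the genotype in each library's label. The mice were 2 to 3 months old and of both sexes, and each library was made from polyA RNA of freshly dissected tissue. The controls' labels do not say from which line each littermate came.

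APC is a scaffold of the complex that marks β-catenin (β-cat, encoded by Ctnnb1) for degradation. When the complex is lost or β-cat lacks its degradation domain, β-cat accumulates and acts with TCF/LEF factors on Wnt target genes. APC also binds microtubules and their plus-end proteins. The comparison addresses what goes with loss of APC in both lines. Each side pairs a line built to raise β-cat (APC cKO, β-cat cOE) with a group that was not. The sides are still not matched for β-cat. By the paper's immunoblots, β-cat protein is strongly reduced in the APC/β-cat cKOs, while their counterparts here are controls. Loss of β-cat thus occurs only on the APC-deleted side, where it cannot be told apart from loss of APC in that line. All 8 APC-deleted libraries carry Cre and only 4 of the 8 APC-intact libraries do. Intact refers to the gene. The paper reports hyperphosphorylated APC protein in the β-cat cOEs, with no significant change in its level after phosphatase treatment. Whether APC function is altered there is left by the paper to later work. CamKIIα-Cre acts in excitatory neurons, so the other cells of the tissue keep Apc. APC/β-cat cKO mice with hydrocephaly were left out of the study by its authors.

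The targeted gene was read first. Apc (chromosome 18, 34207775 to 34322190, mm10) was at 17.1, 10.8, 7.85 and 10.9 FPKM in the APC cKOs and at 10.5, 12.2, 10.6 and 6.80 FPKM in the APC/β-cat cKOs. FPKM is the number of fragments scaled by transcript length and by the mapped fragments of the library. It was at 48.1, 49.5, 41.7 and 38.8 FPKM in the β-cat cOEs and at 43.2, 40.8, 41.6 and 50.1 FPKM in the controls. The sides did not overlap. The mean was 10.9 ± 3.08 FPKM with APC deleted and 44.2 ± 4.35 FPKM with APC intact (SD, n = 8 each), a log2 change of -2.06 (exact two-sided permutation test p = 0.000155, the smallest that 8 against 8 libraries can give). The gene-level value covers the whole transcript, and cells without Cre also add to it.

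Ctnnb1 (chromosome 9, 120933400 to 120960507) did not separate the sides. It was at 162 ± 11.1 FPKM with APC deleted and 159.8 ± 4.15 FPKM with APC intact (SD, n = 8 each), with a log2 change of 0.02 (exact two-sided permutation test p = 0.573). Its lowest and highest values were 150.9 and 182 FPKM in the APC-deleted lines and 155 and 166 FPKM in the APC-intact groups. By genotype, the mean was 170.3 FPKM for APC cKO, 154.5 for APC/β-cat cKO, 159.7 for β-cat cOE and 159.9 for control (n = 4 each). The APC-deleted lines differed by 0.14 on the log2 scale (APC cKO minus APC/β-cat cKO, limma adjusted p = 0.295). As with Apc, the value covers the whole transcript and all cells. It does not measure β-cat protein, which differed from controls in every line with Cre on the paper's immunoblots.

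**Figure D1:**
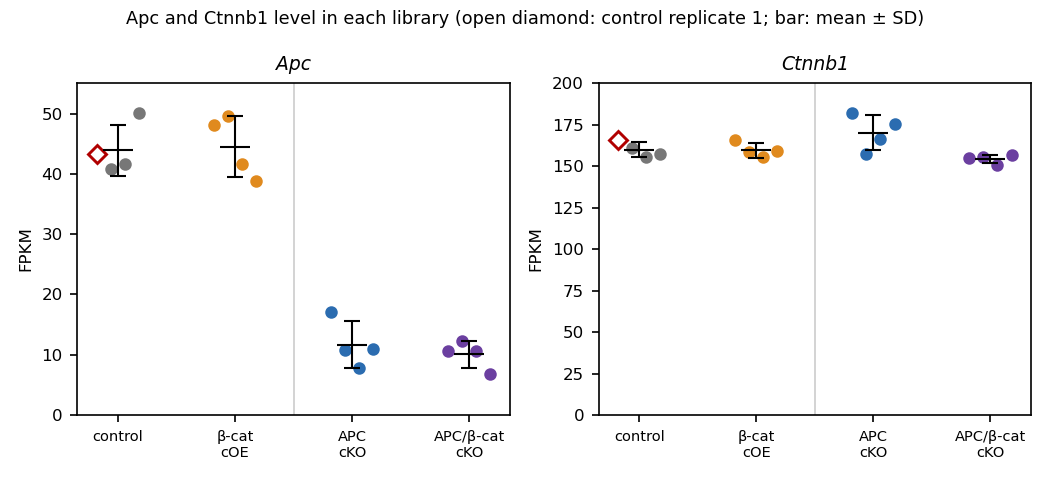
Apc and Ctnnb1 level (FPKM, from 0) in each of the 16 libraries by genotype. Points are libraries, bars the mean and SD of 4 libraries, and the open diamond is control replicate 1. Apc was at 17.1 FPKM or less in the 8 APC-deleted libraries and at 38.8 FPKM or more in the 8 APC-intact libraries, while Ctnnb1 lay between 150.9 and 182 FPKM throughout.

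Excitatory cortical neuron markers marked the tissue in every library. The vesicular glutamate transporter Slc17a7 was at 395 to 521 FPKM in the APC-deleted lines and 420 to 532 FPKM in the APC-intact groups. The libraries' depth is unknown, since the table gives no fragment counts. Between 5726 and 6649 genes were at 0 in a library. By Xist, 2 libraries were from females, 1 on each side (APC cKO replicate 1 and control replicate 1). Rank correlations between libraries ran from 0.973 to 0.991. The labels do not name single mice, so the p-values measure the spread between these libraries.

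Few genes passed the adjusted threshold between the sides. limma called 54 of 13978 genes tested (0.386%) at a Benjamini-Hochberg adjusted p under 0.05, 27 of them higher (0.193%) and 27 lower (0.193%) in the APC-deleted lines. Of these 54 genes, 49 moved the same way in each of the 4 pairs of an APC-deleted with an APC-intact genotype. The call rests on the mean of these 4 pairs, so this agreement is in part fixed by the selection. Most changes were small. The median size among the called genes was 0.46 on the log2 scale, and 40 of the 54 changed by less than 1. It was 0.07 over all genes tested, a gap that selection by p-value also widens. At an unadjusted p under 0.05, 1857 genes passed (13.3%). Called genes whose 8 APC-deleted libraries did not overlap the 8 APC-intact ones numbered 8, among 20 such genes in all (0.143%).

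1 library stood apart at these genes and bears on many of the results. Control replicate 1 had Apc at 43.2 FPKM, inside the APC-intact range, and Fam131b at 63.2 FPKM, as in the 3 other controls (64.1 to 67.2 FPKM) and below the 12 libraries with Cre (98.7 to 119.9 FPKM). At 27 of the 54 called genes (50%), however, its level lay nearer the median of the APC-deleted lines than that of the APC-intact groups. The 7 other APC-intact libraries did so at 2 to 8 genes, the APC/β-cat cKOs lay nearer the APC-intact median at 1 to 6 genes, and the APC cKOs at 10 to 14.

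Without control replicate 1, limma called 143 of 13986 genes (1.02%), 79 higher and 64 lower. These held all 54 genes called with it. Genes whose libraries did not overlap rose from 20 to 71 (0.508%), 8 APC-deleted against 7 APC-intact. This library was also 1 of the 2 from females, and its line of origin is not given, so its part in the results was not tested beyond leaving it out. Values with and without it are given below for some of the genes and counts. The library was picked out at these same called genes, so smaller p-values and more calls without it are in part fixed by that choice.

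**Figure D2:**
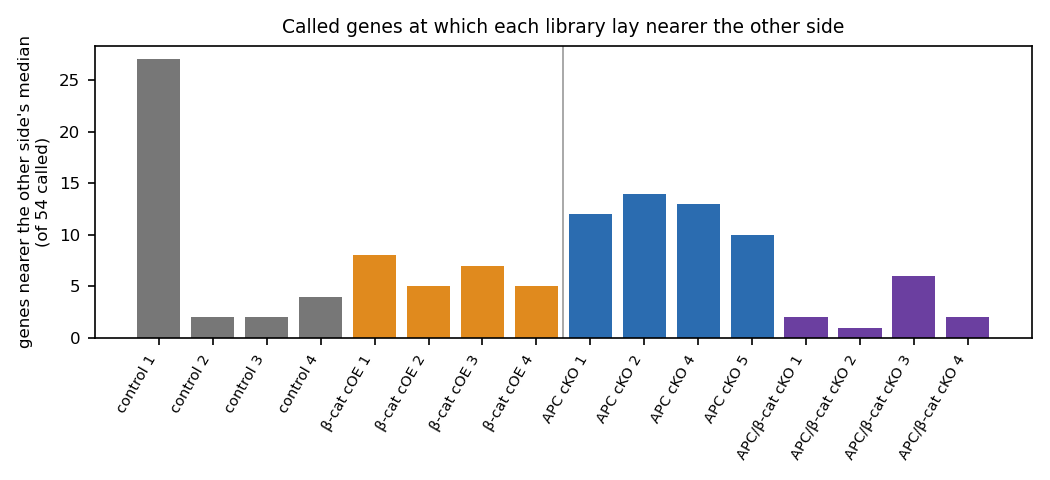
Number of the 54 called genes at which each library lay nearer the median of the other side. Bars are libraries, coloured by genotype, with the APC-intact groups left of the line. Control replicate 1 reached 27 genes, and the next highest library, APC cKO replicate 2, reached 14.

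The largest fall was in Cwc22, which encodes a splicing factor that helps load the exon junction complex. Cwc22 (chromosome 2, 77895653 to 77946353) was at 5.85, 6.65, 6.82 and 6.71 FPKM in the APC cKOs and 6.75, 5.51, 8.30 and 7.43 FPKM in the APC/β-cat cKOs. It was at 158, 58.5, 158 and 73.7 FPKM in the β-cat cOEs and 6.20, 75.3, 80.1 and 119 FPKM in the controls. Control replicate 1 was the 6.20, within the range of the APC-deleted lines, and the 7 other APC-intact libraries lay far above it. The log2 change was -3.33 (SE 0.46, limma adjusted p = 0.00343), and -3.81 without control replicate 1 (adjusted p = 6.35e-08). Against controls alone the adjusted p was 0.113, and against β-cat cOEs alone it was 0.00738.

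Tuba1c, an alpha-tubulin, showed the same arrangement at a low level. It was at 0.247 to 0.470 FPKM in the 8 APC-deleted libraries, at 0.420 FPKM in control replicate 1 and at 2.80 to 3.92 FPKM in the 7 other APC-intact libraries. The log2 change was -2.53 (SE 0.31, limma adjusted p = 0.00105) and -2.85 without that library (adjusted p = 3.03e-08). Il1f9, an interleukin-1 family cytokine gene on chromosome 2, was at 0.437 to 1.24 FPKM with APC deleted, 0.937 FPKM in control replicate 1 and 2.67 to 7.84 FPKM in the other APC-intact libraries (log2 change -2.17, limma adjusted p = 0.00730). Cwc22 and Tuba1c have close relatives in the genome, so reads may have been divided among copies and their levels are uncertain.

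Gm6277, a predicted gene on chromosome 18, fell in both lines with no overlap. It was at 0.373, 0.691, 0.880 and 0.674 FPKM in the APC cKOs and 0.839, 0.754, 0.900 and 0.735 FPKM in the APC/β-cat cKOs. The β-cat cOEs had 2.49, 2.45, 2.19 and 2.69 FPKM, and the controls 1.61, 3.77, 2.82 and 1.75 FPKM. Every APC-intact library was above every APC-deleted one, with control replicate 1 the lowest of the former. The log2 change was -1.62 (SE 0.17, limma adjusted p = 2.84e-04). Apc and Gm6277 were also called against each APC-intact group alone, with adjusted p of 0.00307 for Gm6277 against controls and 0.00269 against β-cat cOEs.

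Of the 8 called genes without overlap, 4 rose and 4 fell. The 4 that rose were Sord, Cyb5r3, Wbp11 and Aldh9a1, and apart from Apc and Gm6277 those that fell were Zdhhc20 and A830018L16Rik. Sord, sorbitol dehydrogenase of the polyol pathway, was at 9.443 to 11.4 FPKM with APC deleted and 7.11 to 9.435 FPKM with APC intact (log2 change 0.32, limma adjusted p = 0.0173). Control replicate 1 was the highest APC-intact library for Sord. Cyb5r3, cytochrome b5 reductase, was at 36.4 to 44.8 against 28.5 to 34.5 FPKM (log2 change 0.28, adjusted p = 0.0221). Wbp11, a pre-mRNA splicing factor, was at 38.6 to 44.6 against 34.5 to 38.1 FPKM (log2 change 0.19, adjusted p = 0.0258). For Cyb5r3 and Wbp11 control replicate 1 sat inside the APC-intact range, at 33.8 and 35.96 FPKM.

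Aldh9a1, an aldehyde dehydrogenase, was at 10.7 to 12.9 FPKM with APC deleted and 8.28 to 10.5 FPKM with APC intact (log2 change 0.31, limma adjusted p = 0.0342). Zdhhc20, which encodes a protein palmitoyltransferase, was at 10.6 to 13.2 against 13.3 to 22.6 FPKM (log2 change -0.49, adjusted p = 0.0314). Its lowest APC-intact value, 13.3 FPKM, was again control replicate 1. A830018L16Rik was at 12.6 to 20.4 against 20.8 to 32.3 FPKM (log2 change -0.54, adjusted p = 0.0436). These 3 genes, like Sord, were separated by a gap smaller than the spread on either side.

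The largest rise among genes at 1 FPKM or more was in Myoc, which encodes the secreted glycoprotein myocilin. Myoc was at 8.07, 8.25, 4.81 and 4.64 FPKM in the APC cKOs and 6.66, 8.77, 11.8 and 9.64 FPKM in the APC/β-cat cKOs. It was at 0.840, 0.512, 2.31 and 1.43 FPKM in the β-cat cOEs and 6.54, 1.07, 1.08 and 0.253 FPKM in the controls. Control replicate 1, at 6.54 FPKM, lay among the APC-deleted libraries. The log2 change was 2.58 (SE 0.44, limma adjusted p = 0.0192) and 2.96 without it (adjusted p = 1.44e-04).

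Other named genes that rose changed by less. Ephx2, soluble epoxide hydrolase, was at 13.7 to 15.8 FPKM with APC deleted and 8.66 to 12.1 FPKM with APC intact apart from control replicate 1 at 14.3 FPKM (log2 change 0.46, limma adjusted p = 0.0314). Ciao1, a component of cytosolic iron-sulfur cluster assembly, was at 19.4 to 20.98 FPKM against 12.9 to 17.99 FPKM, with control replicate 1 at 19.6 FPKM (log2 change 0.37, adjusted p = 0.0338). Ccdc75 was at 10.5 to 13.7 against 8.41 to 9.58 FPKM, with control replicate 1 at 11.2 FPKM (log2 change 0.38, adjusted p = 0.00827). With single libraries left out in turn, Ephx2 lost its call in 11 of 16 cases and Ciao1 in 12, and Ccdc75 in 0. At these 3 genes control replicate 1 was the only one of the APC-intact groups within the APC-deleted range.

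Pxdn and Itih3 rose without that arrangement. Pxdn, a peroxidase of the extracellular matrix, was at 4.68 to 8.24 FPKM with APC deleted and 3.66 to 5.29 FPKM with APC intact (log2 change 0.52, limma adjusted p = 0.0342), with 1 APC cKO inside the lower range. Itih3, a hyaluronan-binding protein gene, was at 8.32 to 11.7 against 5.86 to 8.70 FPKM (log2 change 0.41, adjusted p = 0.0488). Pxdn lost its call in 12 of 16 cases with 1 library left out and Itih3 in 13. Among the smaller falls, Parvg, an actin-linked adhesion protein gene, was at 2.17 to 2.79 FPKM with APC deleted, 2.41 FPKM in control replicate 1 and 3.66 to 5.195 FPKM in the other APC-intact libraries (log2 change -0.70, adjusted p = 0.0173). 4930570G19Rik was at 3.49 to 5.04 FPKM against 5.10 to 9.82 FPKM, with control replicate 1 at 4.82 FPKM (log2 change -0.68, adjusted p = 0.0189). Rps15a-ps6, annotated as a ribosomal protein pseudogene and so likely to share reads with its parent, was at 0.145 to 0.485 FPKM in the APC/β-cat cKOs but at 5.13, 14.1, 4.71 and 0.191 FPKM in the APC cKOs, against 5.58 to 13.7 FPKM with APC intact (log2 change -3.16, adjusted p = 0.0214). Only 1 of the 4 APC cKOs was below 1 FPKM for Rps15a-ps6.

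**Figure D3:**
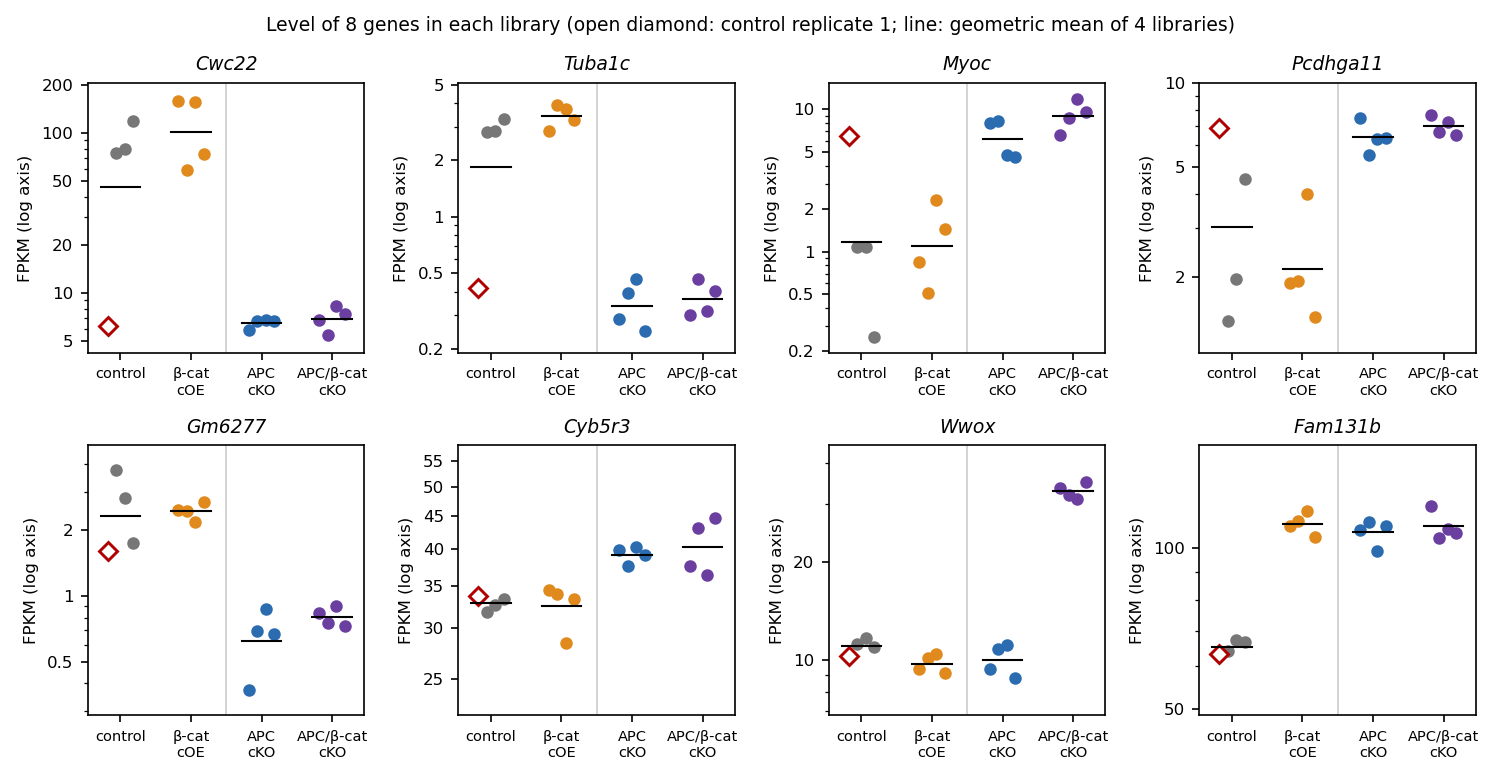
Level (FPKM, log axes that differ between panels) of 8 named genes in each library, by genotype. Points are libraries, lines geometric means of 4 libraries, and the open diamond is control replicate 1. In Cwc22, Tuba1c, Myoc and Pcdhga11 that library lies with the APC-deleted lines, in Gm6277 and Cyb5r3 the sides do not overlap, and Wwox and Fam131b differ in 1 genotype only.

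Some called genes owed the call to a single genotype, so that the comparison of the sides does not describe both lines. Between the APC-deleted lines 6 of the 54 called genes differed (among them 2010315B03Rik, Gnl3l, Sacm1l and Wwox, limma adjusted p under 0.05), and between the APC-intact groups Casp2 and Fam131b differed. The other 46 were not called on either side, which does not show that the genotypes of a side were equal. Among them, Rps15a-ps6 differed by 3.11 on the log2 scale between the APC-deleted lines (APC cKO minus APC/β-cat cKO, limma adjusted p = 0.143). Zyx differed by 0.38 between the APC-intact groups (β-cat cOE minus control, limma adjusted p = 0.726). Wwox, an oxidoreductase with WW domains (chromosome 8), was at 8.82 to 11.1 FPKM in the APC cKOs and 9.10 to 11.7 FPKM in all APC-intact libraries, but at 31.2 to 34.98 FPKM in the APC/β-cat cKOs. Its log2 change of 0.80 between the sides (adjusted p = 8.96e-07) thus came from 4 libraries, and the APC-deleted lines differed by -1.71 (APC cKO minus APC/β-cat cKO, adjusted p = 3.73e-09).

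Called genes of chromosome 9, where Ctnnb1 lies, included 2 that were likewise low in the APC/β-cat cKOs. Within 15 Mb of Ctnnb1, 4 of 206 genes tested were called (1.94%), all lower. Over all genes tested 0.386% were called, 0.193% lower. 2010315B03Rik was at 2.26 to 2.85 FPKM in the APC/β-cat cKOs, 6.15 to 7.32 FPKM in the APC cKOs and 6.03 to 7.87 FPKM with APC intact. Sacm1l, a phosphoinositide phosphatase gene, was at 27.2 to 29.4 FPKM in the APC/β-cat cKOs and at 34.95 to 37.9 FPKM in the APC cKOs, against 34.7 to 43.0 FPKM with APC intact. In both, the APC cKOs lay inside the APC-intact range. The log2 changes between the sides were -0.71 for 2010315B03Rik (limma adjusted p = 2.47e-04) and -0.28 for Sacm1l (adjusted p = 0.00343).

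3 named genes of chromosome 6 followed the controls. Fam131b was at 63.2 to 67.2 FPKM in the 4 controls and 98.7 to 119.9 FPKM in the 12 libraries with Cre. Its log2 change was 0.35 between the sides (limma adjusted p = 2.84e-04), 0.73 against controls alone and -0.03 against β-cat cOEs alone (adjusted p = 0.868). Casp2, a caspase gene, was at 3.36 to 3.85 FPKM in the controls and 1.499 to 2.20 FPKM in the libraries with Cre (log2 change -0.53, adjusted p = 0.0147, and -0.09 against β-cat cOEs alone, adjusted p = 0.850). Zyx, which encodes the focal adhesion protein zyxin, was at 13.0 to 15.5 FPKM in the controls, 18.5 to 20.3 FPKM in the β-cat cOEs and 18.03 to 24.3 FPKM in the APC-deleted lines (log2 change 0.35, adjusted p = 0.0147, and 0.16 against β-cat cOEs alone, adjusted p = 0.496). For these genes APC deletion and the presence of Cre cannot be told apart by the controls, and the β-cat cOEs, which carry Cre, lay at or near the APC-deleted level.

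The change with APC deletion was also set between the pair of lines built to raise β-cat (APC cKO minus β-cat cOE) and the other pair (APC/β-cat cKO minus control). These changes differed at 7 of 13978 genes (0.0501%, limma adjusted p under 0.05). They included Wwox, Fam131b, 2010315B03Rik and Casp2, described above, and the neighbours Fut10 and Tti2 on chromosome 8. Fut10, a fucosyltransferase gene, was at 0.563 to 0.898 FPKM in the APC cKOs and 2.34 to 3.61 FPKM in the APC/β-cat cKOs, with the β-cat cOEs at 2.16 to 2.57 FPKM and the controls at 0.801 to 1.86 FPKM. Its change was -1.53 in the first pair and 1.31 in the second, and the sides as a whole did not differ (log2 change -0.11, adjusted p = 0.765). Tti2, a cofactor of PI3K-related kinases, changed by -0.30 and 0.40 in the same pairs (log2 change between the sides 0.05, adjusted p = 0.742).

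Against each APC-intact group alone, fewer genes were called. The APC-deleted lines differed from controls at 13 genes (0.093%) and from β-cat cOEs at 15 genes (0.107%). Of the 54 called genes, 12 were called against controls alone, 14 against β-cat cOEs alone and 6 against both (Apc, Gm6277, Tuba1c, Pcdhb9, 2010315B03Rik and Wwox). These counts share the same APC-deleted libraries and have 4 instead of 8 libraries on the other side.

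Called genes were unevenly placed on the chromosomes. Chromosome 18, which carries Apc, had 8 of 398 tested genes called (2.01%), chromosome 2 had 11 of 1123 (0.98%), and all other chromosomes together had 35 of 12457 (0.281%), against 0.386% over all genes. Without control replicate 1 these were 23 (5.78%), 37 (3.29%) and 83 (0.666%). Within 15 Mb of Apc, 6 of 197 genes were called (3.05%), and 16 without control replicate 1 (8.12%). The median change of these 197 genes was -0.02 on the log2 scale. No test was made of the placement.

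Besides Apc itself, the other 5 of these genes were clustered protocadherins, neuronal cell adhesion genes whose variable exons lie in a tandem array. Pcdhb6 was at 1.32 to 4.28 FPKM with APC deleted, 3.78 FPKM in control replicate 1 and 0.581 to 1.18 FPKM in the other APC-intact libraries. Pcdhga11 was at 5.52 to 7.70 FPKM, 6.89 FPKM and 1.39 to 4.50 FPKM in the same order, and Pcdhgb5 at 2.55 to 3.62 FPKM, 2.95 FPKM and 0.571 to 1.89 FPKM. All 3 rose, by 1.49, 1.35 and 1.18 on the log2 scale (limma adjusted p = 0.0394, 0.0398 and 0.0373). With single libraries left out in turn, Pcdhb6 and Pcdhga11 lost their call in 13 of 16 cases and Pcdhgb5 in 14. Without control replicate 1, each was without overlap and changed by 1.77, 1.54 and 1.32.

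2 others fell. Pcdhb9 was at 2.21 to 4.58 FPKM with APC deleted, 3.98 FPKM in control replicate 1 and 5.71 to 9.42 FPKM in the other APC-intact libraries (log2 change -1.28, limma adjusted p = 0.00241). Pcdhb12 was at 1.90 to 2.99 FPKM, 2.69 FPKM and 3.27 to 5.01 FPKM (log2 change -0.60, adjusted p = 0.0342), and it lost its call in 13 of the 16 cases. β-cat cOE replicate 3 stood between the sides at Pcdhb6, Pcdhb9 and Pcdhga11, with 1.18, 5.71 and 3.98 FPKM, and control replicate 4 had 4.50 FPKM at Pcdhga11. Over the whole array, 0 of 12 alpha, 3 of 21 beta and 2 of 22 gamma members tested were called, and without control replicate 1 the counts were 0, 7 and 5. Of all genes tested, 0.386% were called, and 1.02% without that library. At an unadjusted p under 0.05, 1 alpha, 8 beta and 9 gamma members passed, against 13.3% of all genes tested. The table gives these genes 1 shared locus (36930285 to 37841872), and near-identical exons can divide reads, so the level of a single member is uncertain.

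The remaining called gene of chromosome 18 is Aldh7a1, an aldehyde dehydrogenase of lysine breakdown. It was at 12.7 to 22.2 FPKM with APC deleted and 19.7 to 29.9 FPKM with APC intact (log2 change -0.62, limma adjusted p = 0.0344), with control replicates 1 and 4 (20.3 and 19.7 FPKM) inside the APC-deleted range. It lost its call in 10 of the 16 cases with 1 library left out.

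On chromosome 2, 9 of the 11 called genes were among the 27 at which control replicate 1 lay nearer the APC-deleted lines. Besides Cwc22, Il1f9, Ciao1 and Sord, the called genes were Mrpl41, Commd9, Bub1b, Pak6, Adal, Pldn and 5330413P13Rik. Bub1b, a mitotic checkpoint kinase gene, was at 0.427 to 1.69 FPKM with APC deleted and 0.0273 to 0.462 FPKM with APC intact (log2 change 2.23, limma adjusted p = 0.00634), and control replicate 1 was low, at 0.167 FPKM. Commd9 was at 21.1 to 28.3 against 17.6 to 23.1 FPKM (log2 change 0.31, adjusted p = 0.0436), with control replicate 1 the highest of the latter. A stretch of 15 Mb beginning near Bub1b, chosen after the values were seen, held 7 called genes of 187 tested (3.74%), and 22 without control replicate 1 (11.8%).

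**Figure D4:**
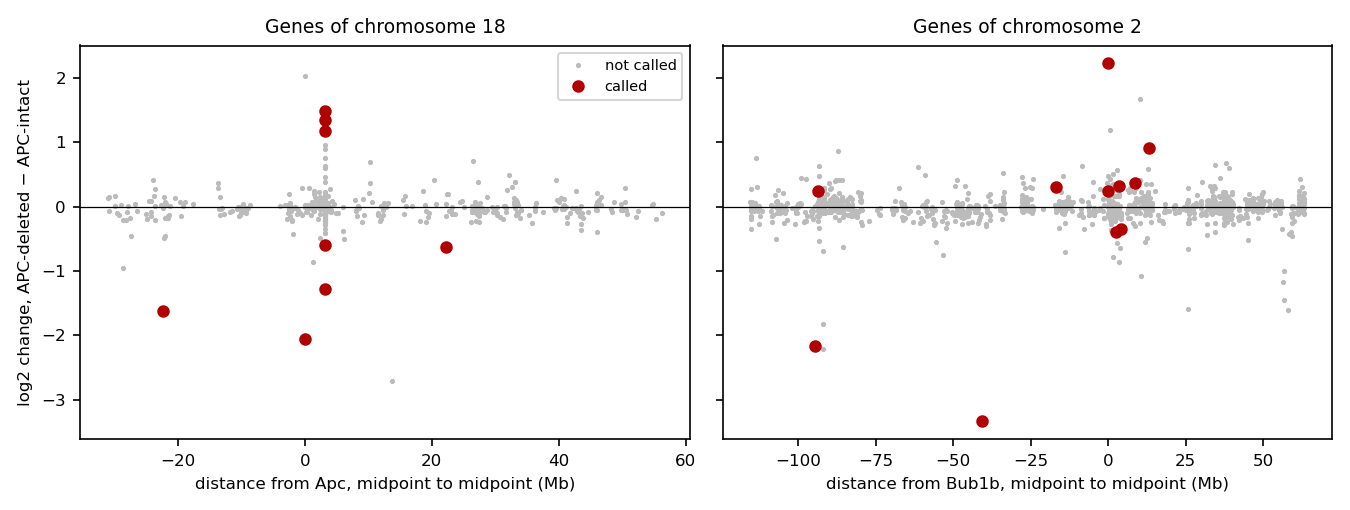
log2 change (APC-deleted minus APC-intact) of each tested gene of chromosomes 18 and 2 against its distance in Mb from Apc or Bub1b, midpoint to midpoint. Red points are the 8 and 11 called genes. On chromosome 18 the called protocadherins form 1 column just to the right of Apc, and on chromosome 2 called genes lie on both sides of Bub1b.

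Lists of Wnt pathway genes held 0 called genes. Only 0.386% of all genes tested were called, so 0 calls in a short list says little, here and in the lists below. In the β-cat destruction complex 0 of 19 members tested were called, with a median log2 change of -0.02. At an unadjusted p under 0.05, 2 were lower, against 874 of 13978 over all genes tested. These 2 were Gsk3b, the kinase that marks β-cat (21.1 to 30.7 against 27.8 to 34.1 FPKM, log2 change -0.21, limma adjusted p = 0.282), and Btrc, its ubiquitin ligase subunit (21.02 to 24.8 against 23.2 to 29.7 FPKM, log2 change -0.17, adjusted p = 0.179). Of 23 Wnt target and feedback genes tested 0 were called, with a median of 0.07. Axin2, the usual reporter of canonical Wnt activity, was at 4.52 to 8.40 FPKM with APC deleted and 4.75 to 6.63 FPKM with APC intact (log2 change 0.06, adjusted p = 0.775). Lef1 had a log2 change of -0.01 and Nkd1 of 0.26, neither called.

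Ccnd1, which encodes the cell cycle regulator cyclin D1, came nearest the threshold among the Wnt targets. It was at 11.96 to 21.9 FPKM with APC deleted and 9.33 to 14.2 FPKM with APC intact (log2 change 0.51, SE 0.12, limma adjusted p = 0.0773), and it was called without control replicate 1 (log2 change 0.58, adjusted p = 0.0199). The lines within each side differ in β-cat, which this comparison averages over.

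Among 24 binding partners of APC, 0 were called and the median was -0.0017. The plus-end binding protein gene Mapre1 was at 16.2 to 17.9 FPKM with APC deleted and 15.7 to 17.9 FPKM with APC intact (log2 change 0.01, limma adjusted p = 0.918). Of 36 microtubule-associated proteins and motors 0 were called (median -0.02). Of 22 cadherins and catenins 0 were called (median -0.0086). At an unadjusted p under 0.05, 3, 5 and 4 members of these 3 lists passed, against 13.3% of all genes tested.

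Tubulins gave the called fall of Tuba1c and otherwise small positive values. Of 16 tested, 14 had a positive log2 change, 7 of them at an unadjusted p under 0.05, and the median was 0.09. Over all genes tested, 983 of 13978 were higher at that p. The most abundant, Tuba1a, was at 545 to 645 FPKM with APC deleted and 471 to 570 FPKM with APC intact (log2 change 0.21, SE 0.05, limma adjusted p = 0.0661). Tubb3, the neuronal beta-tubulin, was at 256 to 300.4 against 236 to 281 FPKM (log2 change 0.13, adjusted p = 0.231). The summed tubulin level was 2703 to 3080 FPKM with APC deleted and 2601 to 2808 FPKM with APC intact, so the sides overlapped.

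Activity-regulated immediate early genes had positive values throughout. All 20 had a positive log2 change (median 0.40, against 0.0002 over all genes tested), 10 at an unadjusted p under 0.05, and 0 were called, with or without control replicate 1. Of all 13978 genes tested, 983 were higher at that unadjusted p. Arc, a synaptic plasticity gene, was at 26.4 to 106 FPKM with APC deleted and 18.6 to 86.0 FPKM with APC intact (log2 change 0.65, limma adjusted p = 0.356). Fosb, a subunit of the AP-1 transcription factor, was at 2.61 to 4.64 against 1.88 to 3.17 FPKM (log2 change 0.52, adjusted p = 0.130). The summed level of the list was 299 to 606 FPKM with APC deleted and 218 to 492 FPKM with APC intact, so the sides overlapped. Genes of this class respond together to neuronal activity, so the members are not independent.

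Synaptic genes had small negative medians. Of 34 glutamate receptor and scaffold genes 0 were called (median -0.08, 7 lower at an unadjusted p under 0.05), and of 22 GABA synapse genes 0 were called (median -0.08, 5 lower and 1 higher). At that p, 874 of all 13978 genes tested were lower and 983 higher. The nearest to the threshold were Gria4, an AMPA receptor subunit (30.5 to 41.8 against 37.5 to 44.9 FPKM, log2 change -0.25, limma adjusted p = 0.0896), and Gabra2, a GABA-A receptor subunit (45.8 to 70.9 against 58.2 to 74.7 FPKM, log2 change -0.23, adjusted p = 0.0838). Of 35 nuclear-encoded oxidative phosphorylation genes 0 were called (median 0.03).

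Cell type markers showed 2 called genes, both lower. Vip, the neuropeptide of a class of cortical interneurons, was at 47.3, 41.9, 56.3 and 47.6 FPKM in the APC cKOs and 48.9, 42.1, 42.0 and 41.3 FPKM in the APC/β-cat cKOs. It was at 59.1, 54.7, 58.1 and 56.7 FPKM in the β-cat cOEs and 47.4, 63.4, 62.3 and 60.4 FPKM in the controls, the lowest being control replicate 1. The log2 change was -0.33 (SE 0.07, limma adjusted p = 0.0436), and the call was lost in 13 of 16 cases with 1 library left out. In bulk tissue, fewer cells of a type and less RNA per cell cannot be told apart. It was the only one of 15 other interneuron markers called, and Sst was at 153 to 482 against 211 to 447 FPKM (log2 change 0.08).

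Rgs5, a marker of pericytes, was at 8.75 to 14 FPKM with APC deleted and 12.6 to 14.9 FPKM with APC intact (log2 change -0.43, SE 0.08, limma adjusted p = 0.0313). APC/β-cat cKO replicate 3 alone, at 14 FPKM, lay within the APC-intact range. The call was lost in 10 of 16 cases with 1 library left out. Pdgfrb, another pericyte marker of the same list, had a log2 change of 0.02 (limma adjusted p = 0.924). It was among the 3 members of the list with a positive change. Of 13 endothelial and pericyte markers 10 had a negative change and 6 were lower at an unadjusted p under 0.05 (median -0.12), among them Flt1 (log2 change -0.34, adjusted p = 0.269) and Slco1a4 (-0.38, adjusted p = 0.222), with 0 called besides Rgs5. Of all 13978 genes tested, 874 were lower at that unadjusted p. The summed level of the list was 103 to 144 FPKM with APC deleted and 129.5 to 146 FPKM with APC intact.

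Other cell types gave 0 calls. The medians were -0.05 for 15 excitatory neuron, -0.13 for 12 parvalbumin interneuron, -0.0043 for 12 astrocyte, -0.04 for 14 oligodendrocyte and 0.02 for 13 microglia markers. Pvalb was at 25.6 to 66.1 FPKM with APC deleted and 37.1 to 68.2 FPKM with APC intact (log2 change -0.22, limma adjusted p = 0.479). The 12 meninges and vessel collagen genes had a median of 0.03, the 11 immature neuron genes of 0.13 and the 6 blood cell genes of -0.04. Without control replicate 1, the medians of the astrocyte, immature neuron and blood cell lists were -0.02, 0.08 and -0.11.

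Markers of tissue bordering the prefrontal cortex varied among libraries of both sides. All 12 striatal projection neuron markers had a positive change (median 0.35, and 0.63 without control replicate 1), and their summed level ran from 150 to 659 FPKM with APC deleted and from 124 to 471 FPKM with APC intact. Drd2 was at 0.853 to 15.4 against 0.354 to 9.05 FPKM (log2 change 0.68, SE 0.67). All 9 ependyma and choroid plexus markers tested were positive as well (median 0.58), with a summed level of 6.16 to 45.0 against 6.68 to 29.1 FPKM. 0 of these were called and 0 reached an unadjusted p under 0.05.

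**Figure D5:**
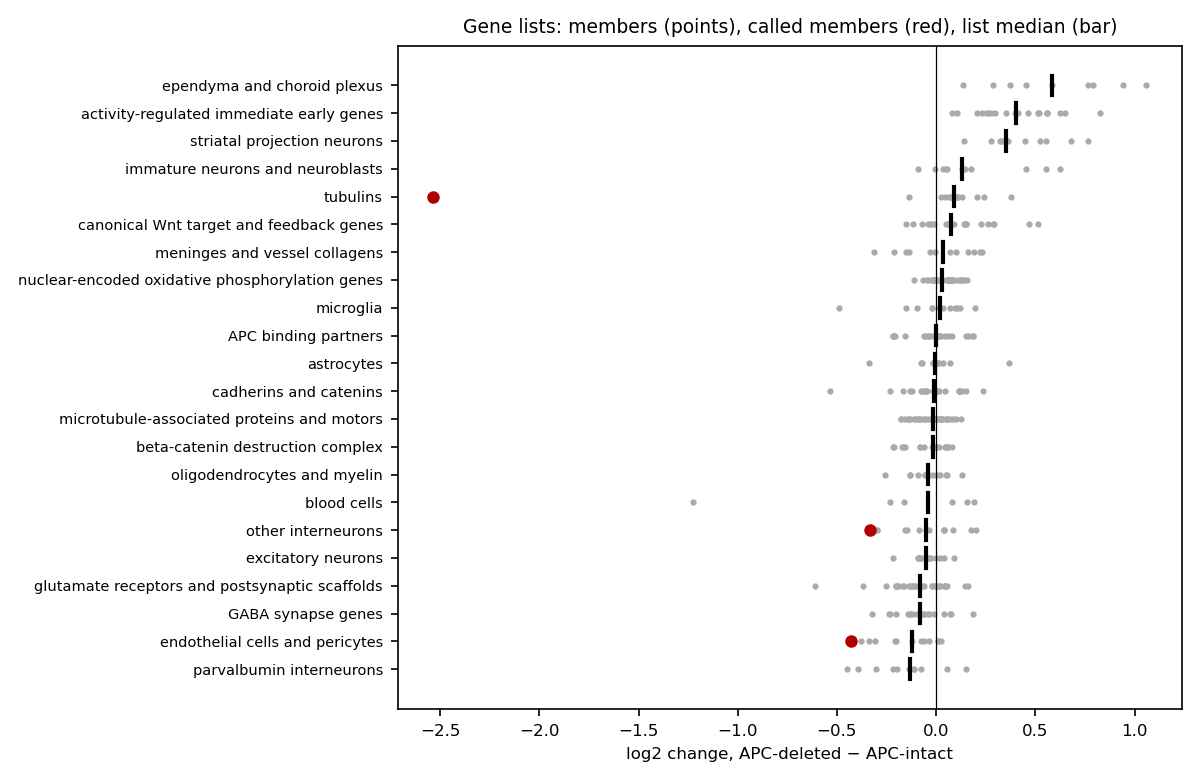
log2 change (APC-deleted minus APC-intact) of each tested member of 22 gene lists, 1 list per row, ordered by median. Grey points are members, red points the 3 called members (Tuba1c, Vip and Rgs5), and black bars the list medians. List medians lay between -0.13 and 0.58.

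Promoters of called genes were read for the core letters of the TCF/LEF site, since β-cat acts through these factors. Windows of 250 bases before to 50 bases after the start were taken from RefSeq (GRCm38.p6), which held 35 windows for 31 of the 54 called genes. The letters CTTTGA, or TCAAAG when read on the opposite strand, were in 4 of these windows (11.4%) and in 5257 of all 32851 windows (16%). The 4 windows are shown because they belong to the only called genes with a match, and capitals mark it. All are on the + strand.
Vip, chr10:5638968-5639267: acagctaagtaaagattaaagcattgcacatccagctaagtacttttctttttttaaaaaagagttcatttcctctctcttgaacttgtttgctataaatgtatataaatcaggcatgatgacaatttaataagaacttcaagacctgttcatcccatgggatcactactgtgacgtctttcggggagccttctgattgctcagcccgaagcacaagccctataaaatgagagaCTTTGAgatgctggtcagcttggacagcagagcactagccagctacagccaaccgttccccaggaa
Rgs5, chr1:169655251-169655550: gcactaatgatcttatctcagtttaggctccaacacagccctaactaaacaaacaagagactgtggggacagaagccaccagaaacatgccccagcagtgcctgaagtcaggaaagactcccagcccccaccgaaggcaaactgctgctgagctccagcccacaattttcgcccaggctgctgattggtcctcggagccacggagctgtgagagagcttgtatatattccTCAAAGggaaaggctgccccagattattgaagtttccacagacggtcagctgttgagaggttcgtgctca
Bub1b, chr2:118597961-118598260: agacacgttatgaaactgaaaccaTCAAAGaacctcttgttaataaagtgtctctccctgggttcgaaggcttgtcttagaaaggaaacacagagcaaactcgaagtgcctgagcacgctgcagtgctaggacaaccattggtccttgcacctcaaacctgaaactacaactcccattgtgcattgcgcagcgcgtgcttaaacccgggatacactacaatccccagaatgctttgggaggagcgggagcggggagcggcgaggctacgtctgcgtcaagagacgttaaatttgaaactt
Commd9, chr2:101886012-101886311: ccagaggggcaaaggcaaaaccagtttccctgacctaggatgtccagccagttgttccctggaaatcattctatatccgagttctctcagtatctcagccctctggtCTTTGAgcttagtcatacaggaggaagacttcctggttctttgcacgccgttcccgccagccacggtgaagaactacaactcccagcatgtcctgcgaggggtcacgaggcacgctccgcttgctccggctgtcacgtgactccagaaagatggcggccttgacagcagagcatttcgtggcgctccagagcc
The match began 16 bases before the start of Vip, 20 before that of Rgs5, 143 before that of Commd9 and 226 before that of Bub1b. Vip and Rgs5 fell and Bub1b and Commd9 rose in the APC-deleted lines, so the genes with a match did not share a direction. A match to 6 letters is a description and says nothing of binding.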

How the data were processed

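Libraries were made by the authors with TruSeq stranded mRNA preparation and sequenced as paired ends. Reads were mapped to mm10 with TopHat2 (2.0.10 in the submitters' processing notes) and values made with Cufflinks2. The deposited values are on a log scale read as log2(FPKM + 1), with base and offset inferred from their sums, and were turned back into FPKM. Of 23284 genes, the 13978 with a mean of at least 0.5 FPKM were tested on log2(FPKM + 0.1) by limma 3.58.1 in R 4.3.3 (a linear model with moderated, trended variances). The model had 4 genotype means and 12 residual degrees of freedom, and genes at a Benjamini-Hochberg adjusted p under 0.05 were called. The scale understates changes of low genes. The planned test assumed FPKM and was kept. The test was checked on simulated data. Apc and Ctnnb1 were compared with exact permutation tests.

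Named genes are the targets, the 12 largest rises and falls among called genes at 1 FPKM or more, called genes within 15 Mb of Apc or Ctnnb1, called list members, Fam131b, Casp2, Zyx, Wwox, and genes differing between the pairs. Up to 3 members are also named for lists without a call. Other genes (further list members, called genes without overlap and those of chromosome 2) were chosen after their values were seen, as was the leaving out of control replicate 1. Members and lists were chosen with earlier results of these data known. Of 444 list entries, 20 were matched by an older symbol and 2 were not matched. Library numbers were not taken to pair the samples. Alternatives covered pseudocount, filter, scaling, trend, sex, block, grouping, threshold and each library left out. Coordinates are those of the table, in mm10. The values of some genes and of 1 list are not reported here.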

Additional observations from a re-analysis of the deposited data

Results flagged for a closer look

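In 8 of 132 groups of 4 libraries (33 named genes in 4 genotypes) 1 library stood far from the other 3, by a gap over range beyond Dixon's 95% critical value, and chance gives about 6.6. Control replicate 1 was high for Myoc (6.54 FPKM, next 1.08, ratio 0.868) and Pcdhb6 (3.78 FPKM, next 0.807, ratio 0.929). β-cat cOE replicate 3 was high for Pcdhb6 (1.18 FPKM, next 0.649, ratio 0.949) and Zyx (20.3 FPKM, next 18.5, ratio 0.994), and low for 2010315B03Rik (6.13 FPKM, next 7.26, ratio 0.843). Parvg was high in APC/β-cat cKO replicate 2 (2.62 FPKM, next 2.27, ratio 0.908), and Vip in APC/β-cat cKO replicate 1 (48.9 FPKM, next 42.1, ratio 0.891). Aldh7a1 was high in APC cKO replicate 1 (22.2 FPKM, next 14.1, ratio 0.848).

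The change with APC deletion differed between the pair of lines built to raise β-cat and the other pair at 7 genes (limma, adjusted p under 0.05). Among them the difference, first pair minus second on the log2 scale, was -1.54 for Wwox, -0.804 for Fam131b, -2.84 for Fut10, 1.32 for 2010315B03Rik, -0.702 for Tti2 and 1.03 for Casp2. Control replicate 1 belongs to the second pair, and without it 5 genes differed.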

How the results depend on the processing

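Apc kept its direction and call under all 31 alternatives (log2 change -2.16 to -1.97), and Ctnnb1 was never called. Of the 30 called named genes, 14 kept their call with each single library left out, and 16 lost it in at least 1 case. Of these, 11 lost it in 10 to 14 of the 16 cases (Pcdhgb5, Pcdhb6, Pcdhga11, Pcdhb12, Vip, Itih3, Pxdn, Ciao1, Ephx2, Rgs5 and Aldh7a1), and 3 (Myoc, Parvg and 4930570G19Rik) only without control replicate 3. Leaving out single libraries gave 16 (control replicate 3) to 143 (control replicate 1) called genes, 5 to 79 higher and 11 to 64 lower, and 4 to 8 genes that differed between the pairs. The count moved by over 1.5 times without control replicates 1, 2 (27) or 3, APC cKO replicates 1 (30), 4 (27) or 5 (27), APC/β-cat cKO replicates 2 (24) or 4 (29), and β-cat cOE replicates 1 (32), 2 (31) or 4 (35).

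Sex as a covariate gave 84 called genes (44 higher) and 4 between the pairs. Leaving out both libraries from females, added after seeing the data, gave 116 (65 higher, 51 lower). Fitting 2 groups of 8 gave 35 (16 higher). An adjusted p under 0.01 gave 13 (4 higher, 9 lower) and 4 between the pairs. An unadjusted p of 0.001 or less gave 136 (77 higher, 59 lower) and 39. A mean of at least 2 FPKM gave 3 between the pairs. Controls alone gave 13 (6 higher, 7 lower), or 17 lower without control replicate 1 (added later), and β-cat cOEs alone gave 15 (3 higher, 12 lower). Direction turned for Fam131b against β-cat cOEs alone (-0.034), for Fut10 against controls alone (0.34, and 0.27 also without control replicate 1) and for Tti2 against β-cat cOEs alone (-0.015). The cause was not tested. Over all 713 list and setting combinations, medians moved by less than the spread between libraries.

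The labels' numbers were not taken to pair the samples. Same-numbered libraries correlated at -0.22 to 0.32 (median -0.07, 4 of 21 pairs over 0.1). These are a different measure from the rank correlations between libraries given above. Whether libraries of the same number shared a batch was not tested. The replicate block by that number gave 7 called genes (2 higher, 5 lower) and 4 between the pairs. The replicate block by adjacent columns of the table, added later, gave 33 (12 higher) and 4.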
